A study of Mus musculus with 22 samples.

Results

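The 45 genes described here encode nucleolar processing and assembly factors and subunits of RNA polymerase I, the proteins that make ribosomes. They were taken by name from a written list with no threshold on a measured value, although the list was drawn up with earlier results of these data known, and all 45 were among the 10516 genes with values. Ribosomes are built in the nucleolus, where RNA polymerase I transcribes a long precursor of the ribosomal RNAs. Guide RNAs of the box C/D and box H/ACA classes direct its modification, the small subunit processome folds and cleaves its 18S part, and a series of assembly factors, among them the PeBoW complex, processes the 28S part into the large subunit. Many of these genes are targets of the transcription factor Myc, and their expression follows the growth state of the cell.

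The values come from NIH3T3 cells, an established line of mouse embryonic fibroblasts, in which Denr was depleted with an shRNA. DENR acts with MCTS1 in reinitiation, the start of translation at a main coding sequence (CDS) by ribosomes that have already translated a short upstream open reading frame (uORF) in the 5′ UTR. The knockdown lysates were Denr shRNA1 (n = 3) and Denr shRNA2 (n = 3), and the control lysates were scramble shRNA (n = 3) and Gfp shRNA (n = 2). Each of the 11 lysates gave 1 RPF-seq library, of ribosome-protected mRNA fragments (footprints), and 1 RNA-seq library. Cells of all 4 groups carried a lentiviral pLKO.1 vector under puromycin selection and were treated with 100 µg/ml cycloheximide for 2 min before lysis. No uninfected or untreated cells were analysed here.

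In reads recovered from the steps between RPKM values, over CDS and 5′ UTR together, the RPF-seq libraries held 10927303 to 21649878 reads and the RNA-seq libraries 8514080 to 20109700. The members had at least 100 CDS reads in every library with the exception of Fbl, whose lowest value was 97 reads. Denr RNA was 180.5 ± 10.97 RPKM in control lysates (SD, n = 5) and 29.2 ± 13.0 RPKM in knockdown lysates (SD, n = 6). It lay between 34.4 and 44.0 RPKM with Denr shRNA1 and between 15.5 and 20.8 RPKM with Denr shRNA2, so that less Denr RNA remained with Denr shRNA2 (-1.18 ± 0.12 against Denr shRNA1 on the log2 scale, limma adjusted p = 0.00197). All 10 fibroblast markers looked for had values, and of 11 markers of blood, epithelial and endothelial cells only Cdh1 and Cdh5 did, with at most 4.05 and 1.10 RPKM in RNA-seq.

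In the control lysates, the members were expressed above the typical gene. Their median RNA level was 71.0 RPKM, against 28.2 RPKM over all genes, and their median CDS footprint level was 72.1 RPKM, against 23.1 RPKM. RPKM is scaled by length, so that levels of different genes can be set side by side. The highest CDS footprint levels were those of Nop10, a small protein of the box H/ACA particle (1367 ± 145 RPKM, SD, n = 5), of Npm1, the abundant nucleolar chaperone nucleophosmin (692 ± 143 RPKM), and of Ncl, nucleolin (672 ± 141 RPKM). Npm1 and Ncl did not differ beyond their spread. The lowest were those of Polr1a, the largest subunit of RNA polymerase I (10.998 ± 1.18 RPKM), and of Heatr1 and Utp20, very large scaffold proteins of the small subunit processome (11.4 ± 1.70 and 11.5 ± 0.981 RPKM), and these 3 did not differ beyond their spread either. In RNA-seq, the order was led by Nop10 (614 RPKM), Npm1 (564 RPKM) and Nhp2 (402 RPKM), and closed by Fbl (15.3 RPKM), Polr1a (12.9 RPKM) and Utp14a (12.5 RPKM). Npm1 has near-identical processed copies in the mouse genome, and how the reads of such copies were shared is not known from the values, which limits the order of levels and of TE for any member with such copies.

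Translation efficiency (TE), the ratio of CDS footprint RPKM to CDS RNA RPKM in a lysate, had a control median of 1.11 over the members and of 0.949 over all genes. It was highest for Gar1 (2.82), Fbl (2.29) and Ncl (2.26) and lowest for Wdr43 (0.671), Utp20 (0.621) and Heatr1 (0.615). Fbl encodes fibrillarin, the methyltransferase of the box C/D particle. Its partners Nop56 and Nop58, which form the core of the same particle, had 273 and 215 RPKM in RNA-seq, against 15.3 RPKM for Fbl. In RNA-seq, however, the 5′ UTR of Fbl had a higher RPKM than its CDS, with a mean ratio of 4.51 in control lysates. Whether the CDS level of Fbl is too low, and its TE too high, for this reason was not tested.

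Denr knockdown and control lysates were compared first by the footprints on the CDS, which measure the output of translation. Of the 45 members, 7 fell and 0 rose at an FDR of 0.1 (limma on log2 RPKM, adjusted over all genes tested), or 15.6% of the members, while 4.55% of all 10516 genes tested fell. The 7 were Nop2, Rrp9, Rrp12, Wdr12, Heatr1, Utp15 and Utp20, and their log2 changes lay between -0.32 and -0.21. The median change was -0.19 on the log2 scale over the members and 0.01 over all genes, and 44 of 45 members were below 0. In 0 of the 45 members did all 6 knockdown lysates lie below all 5 control lysates, against 1.97% of all genes. With 45 members, a count of 0 cannot be told apart from that share. The count of 7 became 1 without any 1 of the scramble lysates or without Denr shRNA2 replicate 1 or 2, 2 without Denr shRNA2 replicate 3, 4 without Denr shRNA1 replicate 1, and 24 without Gfp replicate 2. In bulk lysates, fewer cells with the RNA and less RNA per cell cannot be told apart, and the values are relative to the other genes of a library.

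By role, the members fell as follows. Of the 12 proteins of the small subunit processome, which assembles on the 5′ part of the ribosomal precursor, 4 fell (Rrp9, Heatr1, Utp15 and Utp20), and the median of the 12 was -0.20. Of the 4 late 40S factors, 1 fell, Rrp12, an export factor of both subunits. Of the 3 proteins of PeBoW, 1 fell, Wdr12 (-0.27), while its partners Bop1 and Pes1 had changes of -0.06 and -0.03. Of the 11 other factors of 60S assembly, 1 fell, Nop2, the enzyme that methylates cytosine in 28S rRNA, and the median of the 11 was -0.11. In the box C/D, box H/ACA, chaperone and polymerase groups, 0 of 3, 0 of 4, 0 of 6 and 0 of 2 passed the test. At an unadjusted p under 0.05, 21 members were lower and 0 higher, against 10.9% of all genes lower. Within the box H/ACA particle, the pseudouridine synthase Dkc1 had a change of -0.26, and its partners Gar1, Nop10 and Nhp2 had changes of -0.02, -0.01 and 0.04.

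For the 7 members, the levels in the single lysates show where the knockdown and control groups met. Nop2 (ENSMUSG00000038279, chr6:125131909-125144753, plus strand, GRCm38) had CDS footprint levels of 76.2, 73.9 and 85.5 RPKM with scramble, of 67.1 and 65.1 with Gfp, of 63.3, 66.0 and 67.9 with Denr shRNA1, and of 52.6, 51.2 and 52.2 with Denr shRNA2. The Gfp and Denr shRNA1 lysates overlapped, scramble was above both, and Denr shRNA2 was below all others. The knockdown change of Nop2 was -0.32 ± 0.09 (log2, SE, limma adjusted p = 0.0653). The same order was seen for Rrp12 (chr19:41862851-41896173, minus strand), with 22.1, 22.4 and 24.96 RPKM, 19.3 and 20.6 RPKM, 19.2, 19.9 and 18.9 RPKM, and 17.5, 15.8 and 16.7 RPKM in the groups as listed for Nop2 (-0.28 ± 0.08, adjusted p = 0.0640). Both calls were lost without any 1 of the 3 scramble or the 3 Denr shRNA2 lysates.

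Wdr12 (chr1:60069785-60098645, minus strand) had 91.5, 91.9 and 96.0 RPKM with scramble, 86.2 and 78.4 with Gfp, 78.6, 73.2 and 74.9 with Denr shRNA1, and 72.1, 65.8 and 75.3 with Denr shRNA2. The groups overlapped by 1 lysate alone, Gfp replicate 2, which lay just under the highest knockdown lysate. Its change of -0.27 ± 0.06 had the smallest adjusted p of the members (limma, 0.0267), and the call was kept when any 1 of the 11 lysates was left out.

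The 3 processome proteins Utp15, Utp20 and Heatr1 varied less among the knockdown lysates than among the controls. Utp15 (chr13:98246845-98263041, minus strand) had between 23.3 and 25.8 RPKM in the 6 knockdown lysates and 30.6, 32.4, 29.4 (scramble), 27.4 and 24.2 RPKM (Gfp) in the controls. Utp20 (chr10:88746607-88826804, minus strand) had between 9.50 and 10.3 RPKM in knockdown lysates and 11.9, 11.6, 12.6, 11.7 and 9.94 RPKM in the controls in the same order. Heatr1 (chr13:12395027-12440289, plus strand) had between 8.49 and 9.87 RPKM in knockdown lysates and 11.5, 11.8, 14.0, 10.0 and 9.74 RPKM in the controls. In each of the 3, Gfp replicate 2 fell inside the range of the knockdown lysates and the other 4 control lysates were above it. The adjusted p values were 0.0924, 0.0928 and 0.0999 (limma), close to the threshold, and each of these calls was lost without 9 or 10 of the 11 lysates in turn.

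**Figure D1:**
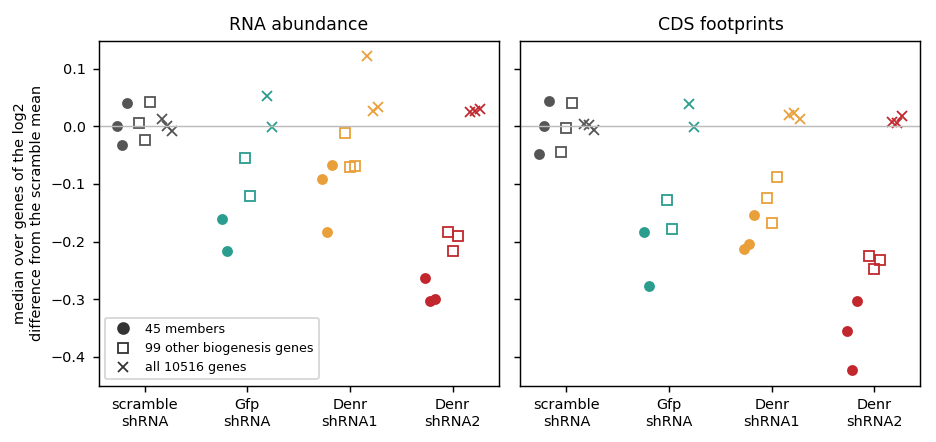
Median over genes of the log2 difference from the scramble mean, for RNA abundance (left) and CDS footprints (right), with 1 point per lysate. Filled circles are the 45 members, open squares 99 other ribosome biogenesis genes and crosses all 10516 genes, and the members of the Gfp lysates lie within or near the range of the Denr shRNA1 lysates while those of Denr shRNA2 lie lowest.

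The 38 members that did not pass had CDS footprint changes between -0.29 and 0.04 on the log2 scale. In the processome these were Wdr43 (-0.21), Utp4 (-0.21), Bms1 (-0.19), Wdr75 (-0.18), Nop14 (-0.15), Noc4l (-0.15), Utp18 (-0.13) and Utp14a (-0.10), so that the values of its 12 proteins were all below 0. The late 40S factors Tsr1 (-0.23), Ltv1 (-0.16) and Nob1 (-0.03), the endonuclease that makes the end of 18S rRNA, were spread more widely. Among the 60S factors, Rrs1 (-0.29), which helps load the 5S particle, and Noc3l (-0.19) had the largest decreases in value after Nop2. Its other members Ebna1bp2 (-0.14), Nop16 (-0.11), Rpf2 (-0.11), Noc2l (-0.06), Rpf1 (-0.05), Rrp1 (-0.04), Nip7 (-0.04) and Mrto4 (-0.02) lay nearer to 0. The 3 core proteins of box C/D particles had -0.28 (Nop58), -0.22 (Nop56) and -0.21 (Fbl), and those of box H/ACA had the values given above. Lyar (-0.29), Gnl3 (-0.28), Ncl (-0.23), Nolc1 (-0.23), Npm1 (-0.17) and Tcof1 (-0.17), the chaperones and cofactors, and Polr1b (-0.23) and Polr1a (-0.22), the 2 largest subunits of RNA polymerase I, had values in the same range.

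The control shRNAs differed from each other in these genes, which was noticed after the data had been seen and then tested in a model with 4 group means. In CDS footprints, 18 of 45 members were lower with Gfp than with scramble shRNA, against 3.1% of all genes, and 0 were higher. This count was 4 without either Gfp lysate and 8 without scramble replicate 2 or scramble replicate 3. The largest of these differences were those of Npm1 (-0.50 ± 0.10, limma adjusted p = 0.0166), Dkc1 (-0.48 ± 0.08, adjusted p = 0.00883), Ncl (-0.46 ± 0.13, adjusted p = 0.0672) and Lyar (-0.44 ± 0.08, adjusted p = 0.0121). Lyar is a nucleolar activator of ribosomal RNA transcription. Npm1 had 688, 869 and 799 RPKM with scramble and 534 and 572 RPKM with Gfp, whereas the 6 knockdown lysates lay between 543 and 710.2 RPKM. For this gene, 1 Gfp lysate lay below all knockdown lysates and the other within their range. In Dkc1, with 113, 124 and 133 RPKM with scramble, 90.2 and 86.4 with Gfp, 105, 93.0 and 98.7 with Denr shRNA1, and 84.4, 78.7 and 82.2 with Denr shRNA2, the Gfp lysates lay between both Denr shRNAs. In Lyar, with 106, 115 and 121 RPKM, 86.0 and 82.2 RPKM, 90.9, 88.6 and 97.7 RPKM, and 77.5, 69.0 and 74.7 RPKM in the same order, they did so too. The median of the members, set to the scramble mean, was -0.18 and -0.28 in the Gfp lysates, -0.21, -0.21 and -0.15 in the Denr shRNA1 lysates, and -0.36, -0.42 and -0.30 in the Denr shRNA2 lysates, and the median of all genes lay between -0.01 and 0.04 in each of the 11 lysates.

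Each Denr shRNA was then set against each control. Against scramble, 24 members were lower with Denr shRNA1 (12.3% of all genes) and 37 with Denr shRNA2 (13.2% of all genes). Against Gfp, 0 members were lower with Denr shRNA1 (3.52% of all genes), where at an unadjusted p under 0.05 there were 3 members higher (6.67%, against 6.76% of all genes) and 0 lower (against 8.68%), and 2 were lower with Denr shRNA2 (2.21% of all genes), namely Nop2 (-0.35 ± 0.07, adjusted p = 0.0345) and Rrp9 (-0.34 ± 0.09, adjusted p = 0.0741). These comparisons share their control or knockdown lysates and are not independent of each other or of the comparison of all lysates. The 8 members that did not pass with Denr shRNA2 against scramble were Nhp2, Nop10, Gar1, Nob1, Rpf1, Rpf2, Rrp1 and Nip7. Without both Gfp lysates, with scramble alone as control, 31 members fell in the knockdown.

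**Figure D2:**
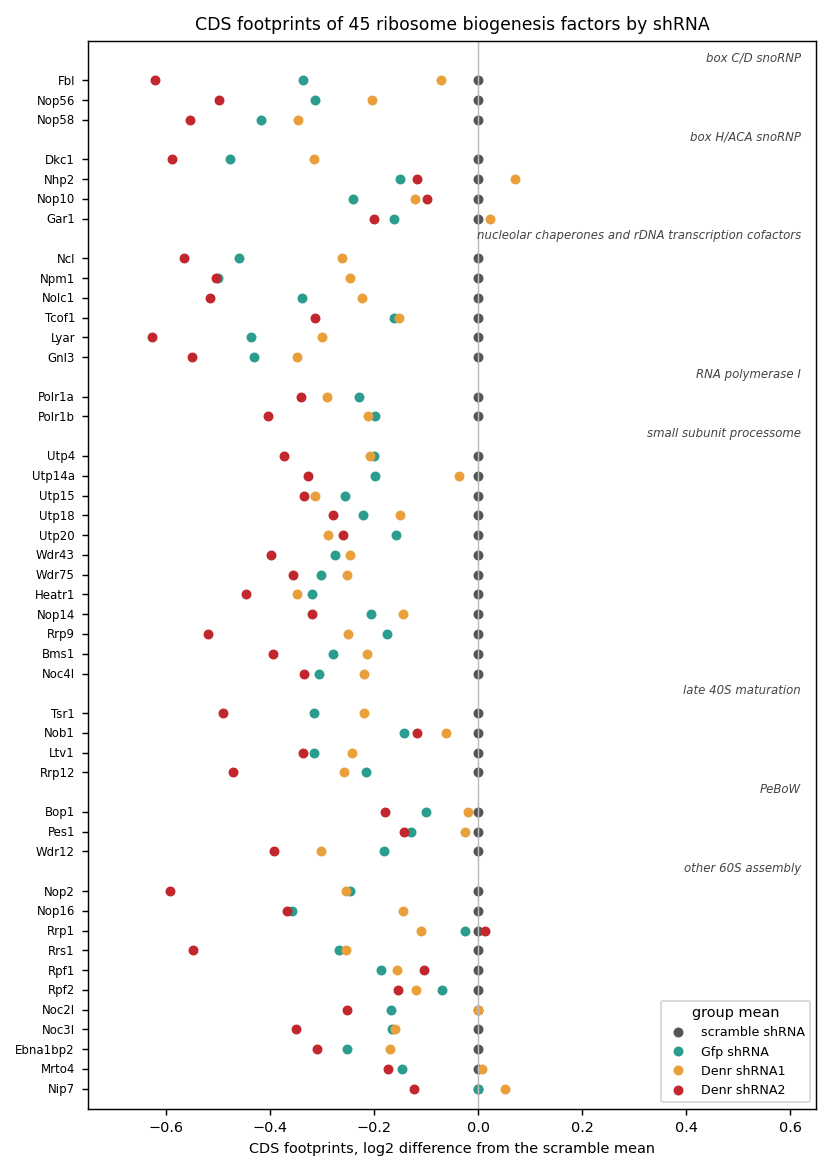
CDS footprints of each member by shRNA, as the log2 difference of a group mean from the scramble mean, with members ordered by role. Points are means of 3 lysates (2 for Gfp), and in most rows Gfp and both Denr shRNAs lie left of scramble, with Denr shRNA2 farthest.

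Denr shRNA2, which left less Denr RNA, was also compared with Denr shRNA1 directly. In CDS footprints, 10 members were lower with shRNA2 and 0 higher, against 4.01% of all genes lower. They were Fbl (-0.55 ± 0.13, limma adjusted p = 0.0259), Nop2 (-0.34 ± 0.07, adjusted p = 0.00937), Lyar (-0.33 ± 0.07, adjusted p = 0.0179), Nop56, Rrs1, Nolc1, Dkc1, Tsr1, Rrp9 and Noc2l. Fbl had 32.9, 39.8 and 36.8 RPKM with shRNA1 and 23.5, 26.8 and 24.3 RPKM with shRNA2, without overlap, while the controls ranged from 24.8 (Gfp replicate 1) to 42.2 RPKM (scramble replicate 2). In RNA abundance, TE and relative 5′ UTR translation, 0 members passed between both shRNAs (limma). At an unadjusted p under 0.05, 12 members were lower in RNA (26.7%, against 7.41% of all genes), 1 was higher in TE (2.22%, against 2.02%) and 0 differed in relative 5′ UTR translation (against 0.618% of genes higher and 2.09% lower). These fits had no replicate block, and a fit with such a block, given in the last section, called members in RNA too. The count of 10 was 6 without Denr shRNA1 replicate 1 or Denr shRNA2 replicate 1, 5 without Denr shRNA1 replicate 2 or 3 or Denr shRNA2 replicate 3, and 3 without Denr shRNA2 replicate 2. Whether the remaining Denr RNA or another property of the shRNAs goes with this difference cannot be told apart with 2 shRNAs.

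Whether the lower footprints went with lower RNA was asked next. RNA abundance is the RNA-seq level on the CDS. Its median change over the members was -0.16 on the log2 scale, against 0.03 over all genes, and 36 of 45 were below 0. At an FDR of 0.1, 1 of 45 members rose, Rrp9, and 0 fell, against 3.55% of all genes called in either direction (at an unadjusted p under 0.05, 9 members, or 20.0%, were lower, against 4.92% of all genes). The largest decreases in value were those of Nop58 (-0.36 ± 0.21, limma adjusted p = 0.422), Dkc1 (-0.31 ± 0.15, adjusted p = 0.355) and Tsr1 (-0.28 ± 0.10, adjusted p = 0.167), a late 40S factor, and none of these 3 passed the test. Nop58 RNA ranged from 104 to 215 RPKM in knockdown and from 128 to 327 RPKM in control lysates, and its lowest value in each arm was that of Denr shRNA1 replicate 1 and of Gfp replicate 1. Ncl was also lowest in these lysates, with 147 and 189 RPKM, where its other 9 lysates had 239 to 406 RPKM, so that 1 RNA-seq library in each arm stood apart for these genes. The same libraries were lowest in their arms for other members, among them Dkc1, Lyar, Gnl3, Npm1, Nop14 and Bms1, but not for all, such as Nop56. TE has this RNA level as its denominator. With scramble as reference, 2 members were lower with Denr shRNA1 (Ltv1 and Wdr43, against 3.12% of all genes) and 15 with Denr shRNA2 (against 3.47% of all genes). With Gfp as reference, the direction depended on the Denr shRNA, since 38 of 45 members were above 0 with Denr shRNA1 (median 0.05) and 36 of 45 below 0 with Denr shRNA2 (median -0.10), and in CDS footprints these were 33 of 45 above 0 (median 0.07) and 40 of 45 below 0 (median -0.11). Between Gfp and scramble, 0 members were lower (0.171% of all genes). At an unadjusted p under 0.05, 8 members were lower with Gfp (17.8%, against 3.27% of all genes). There, 41 of 45 members were below 0, with a median of -0.19, against 0.01 over all genes. Between the Denr shRNAs 0 members were lower at the FDR (0.932% of all genes). In 0 of 45 members were all knockdown lysates below all controls in RNA (1.04% of all genes).

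**Figure D3:**
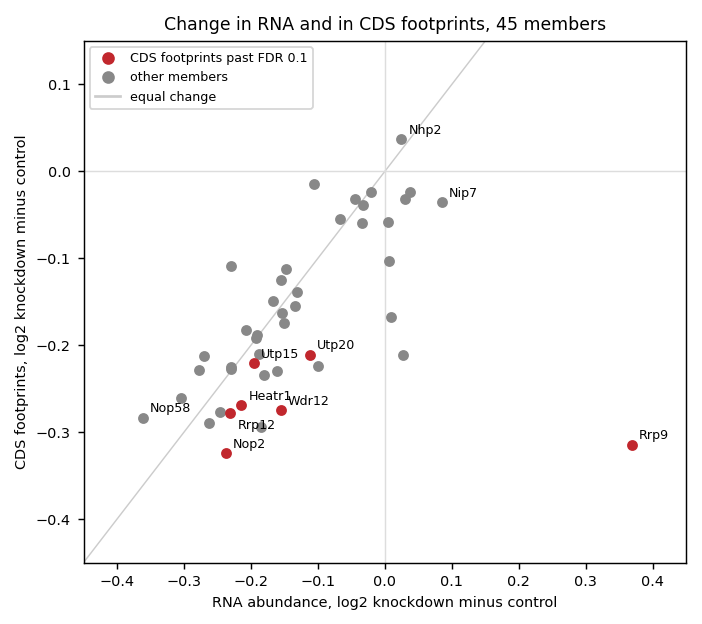
Change in RNA abundance (x) and in CDS footprints (y) of the 45 members, as log2 knockdown minus control. Red points passed an FDR of 0.1 in CDS footprints, and Rrp9, at 0.37 in RNA and -0.31 in footprints, lies apart from the other members.

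TE removes the RNA change from the footprint change. Its median change over the members was -0.02, against -0.01 over all genes, and 28 of 45 members were below 0. Of the 45 members, 1 fell, Rrp9, against 0.475% of all genes. Apart from Rrp9, the largest decreases in value were those of Fbl (-0.24 ± 0.21, limma adjusted p = 0.988) and Tcof1 (-0.18 ± 0.07, adjusted p = 0.665), the treacle protein of ribosomal RNA transcription. The largest increases in value were those of Rpf2 (0.12 ± 0.10), Nop10 (0.09 ± 0.10) and Nop58 (0.08 ± 0.20), and none of these passed.

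Rrp9 (ENSMUSG00000041506, chr9:106475963-106485424, plus strand) encodes the U3-55K protein, which binds the U3 guide RNA within the small subunit processome. Its RNA was 72.2, 64.5 and 59.7 RPKM with scramble, 67.7 and 51.0 with Gfp, 97.8, 83.9 and 73.2 with Denr shRNA1, and 81.5, 70.4 and 80.9 with Denr shRNA2, so that 5 of 6 knockdown lysates were above all controls. Its CDS footprints were 49.7, 53.2 and 53.3 RPKM with scramble, 43.0 and 49.5 with Gfp, 40.1, 48.1 and 43.5 with Denr shRNA1, and 35.6, 36.9 and 36.3 with Denr shRNA2. Here only Denr shRNA1 overlapped the controls. Its TE was 0.688, 0.826 and 0.893 with scramble, 0.635 and 0.971 with Gfp, 0.410, 0.574 and 0.595 with Denr shRNA1, and 0.438, 0.525 and 0.450 with Denr shRNA2. All 6 knockdown values of TE were below all 5 control values, which held for 1 of 45 members and 1.32% of all genes. Its RNA rose by 0.37 ± 0.10 (limma adjusted p = 0.0881), footprints fell by 0.31 ± 0.09 (adjusted p = 0.0512), and TE fell by 0.68 ± 0.13 (adjusted p = 0.0629), all on the log2 scale. The RNA call was lost without any 1 of 7 lysates (the 3 scramble, Gfp replicate 2, Denr shRNA1 replicate 2, and Denr shRNA2 replicates 1 and 3), and the call in CDS footprints without any 1 of 5 (the 3 scramble, and Denr shRNA2 replicates 1 and 2). The TE call was lost without any 1 of the 3 scramble, the 3 Denr shRNA2 or the Gfp replicate 2 lysates, with log2 changes between -0.76 and -0.61 over 21 alternatives, and the change was between -0.77 and -0.60 for each Denr shRNA against each control. The RNA and TE calls were also lost with centred libraries. With Denr shRNA1 alone all 3 calls were lost, and the TE call also with Denr shRNA2 alone and with scramble alone as control. The RNA call was lost without trend as well. TE of Rrp9 was lowest in each arm in Denr shRNA1 replicate 1 and Gfp replicate 1, whose RNA-seq libraries stood apart for other members.

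**Figure D4:**
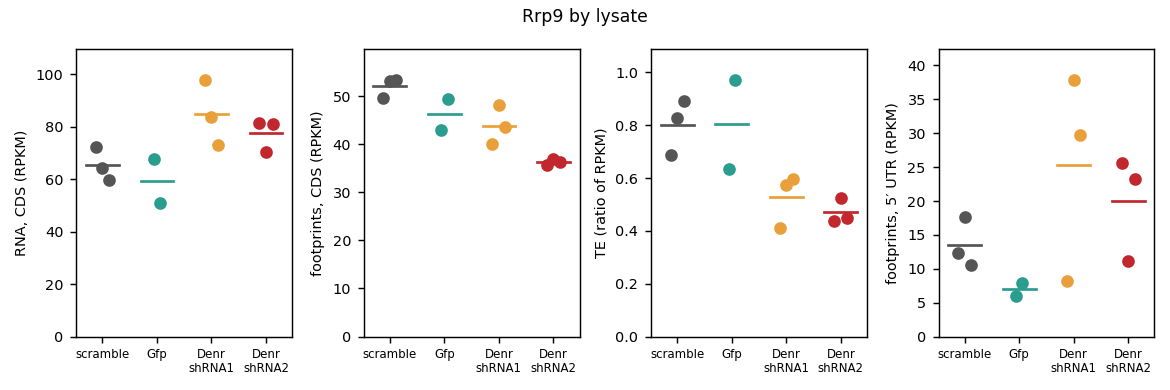
Rrp9 in every lysate by shRNA, with bars at the group means. From left to right are the CDS RNA level, the CDS footprint level, their ratio (TE) and the footprint level of the 5′ UTR, and the knockdown lysates lie above the controls in RNA, with overlap, and below all controls in TE.

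The 5′ UTR of Rrp9 is 79 nt long in the annotated transcript with the longest CDS and has 1 AUG uORF, of 42 nt, whose stop codon lies 16 nt before the CDS. The start of this uORF is shown with its neighbouring bases because Rrp9 was the member whose TE fell, and the starts of the other uORFs of members that fell in CDS footprints are shown for comparison, with the AUG in capitals (as ATG, from the genome sequence of GRCm38, RNA sense). Rrp9 lies at chr9:106477278-106477304 (plus strand, exon 1). The starts of Utp15 are at chr13:98262938-98262964 (exon 1) and chr13:98260882-98260908 (exon 2, minus strand), that of Utp20 is at chr10:88826789-88826804 (exon 1, minus strand), those of Heatr1 are at chr13:12395371-12395385 and chr13:12395398-12395424 (exon 1, plus strand), and those of Wdr12 are at chr1:60098253-60098279 (exon 1, minus strand) and chr1:60097664-60097690 (exon 2).
Rrp9: ccgggtcttgccATGcggctggggttt
Utp15 first: ctgcagagcggtATGctgtagggagct
Utp15 second: cagcgcacttatATGaaaccatggccg
Utp20: cATGgcggcgcccagc
Heatr1 first: ATGaggcgtgcttta
Heatr1 second: agtgccggcaccATGtgggagctgatc
Wdr12 first: gagaccagcacaATGcgcaggcgcacc
Wdr12 last: gaacctcgtggtATGttctgtaggaac

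Between genes, these uORFs were unlike each other in length and place. The first uORF of Utp15 is 9 nt long, a start codon followed by 1 sense codon and a stop, and its second overlaps the CDS. In Utp20 and the first of Heatr1 the AUG lies at base 2 and base 1 of the annotated transcript. Wdr12 has a 5′ UTR of 683 nt with 3 uORFs, of which the second spans an exon junction and is not shown, and the first lies where the antisense neighbour Carf overlaps. Of the 7 members that fell in CDS footprints, 5 had an AUG uORF, and of the other 38, 10 had one. Over all genes, 4.56% of those with and 4.57% of those without an AUG uORF fell in CDS footprints. The median footprint change was -0.22 for the 15 members with and -0.17 for the 30 members without an AUG uORF. On this choice of transcript, 15 of 45 members (33.3%, exact 95% binomial interval 20.0% to 49.0%) had at least 1 AUG uORF, against 49.8% of all genes with an annotated 5′ UTR, and their median 5′ UTR was 100.0 nt, against 179 nt. With the transcript of the longest 5′ UTR in place of the longest CDS, these shares were 51.1% and 61.7%, and over the genes with a single protein-coding transcript they were 31.6% (6 of 19 members) and 40.4%.

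Redistribution of footprints from the CDS to the 5′ UTR was measured as relative 5′ UTR translation, the ratio of footprint RPKM on the 5′ UTR to that on the CDS. CDS footprints are its denominator, and their median change was -0.19 over the 45 members, against 0.01 over all genes. A rise of the ratio is therefore not separate from a fall in CDS footprints, and the share of each in the members was not tested. The test took genes whose 5′ UTR held 20 or more footprints in 9 or more of the 11 libraries, which were 5175 genes and 22 of the 45 members. The other 23 members had fewer footprints there, and Nob1 and Rpf1 had none in any library, and Noc4l, Noc2l and Bop1 had at most 1. Of the 22, 10 rose and 0 fell at an FDR of 0.1 (45.5% of the members tested), while 18.1% of the 5175 genes rose. The median change was 0.53 over the 22 and 0.33 over all genes tested, and 21 of the 22 were above 0. The members with complete separation of both arms were 3 of 22, Fbl, Nop16 and Wdr12, against 4.83% of all genes tested, although Wdr12 did not pass the FDR (0.31 ± 0.14, limma adjusted p = 0.146).

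Fbl (chr7:28169710-28179269, plus strand) had a relative 5′ UTR translation of 1.17, 0.937 and 1.17 with scramble, 1.68 and 0.878 with Gfp, 1.72, 1.75 and 1.81 with Denr shRNA1, and 1.95, 2.14 and 2.43 with Denr shRNA2 (0.78 ± 0.18, limma adjusted p = 0.0350). All 6 knockdown values were above the controls, with Gfp replicate 1 the nearest, and between 41 and 95 footprints per library lay on this 5′ UTR. In RNA-seq, the ratio of 5′ UTR to CDS RPKM of Fbl was also above 1, with means of 4.51 in control and 4.92 in knockdown lysates. The height of the footprint ratio is therefore not read as a level of 5′ UTR translation. Its 5′ UTR footprints themselves were between 46.0 and 69.9 RPKM in knockdown and between 32.4 and 43.0 RPKM in control lysates, without overlap. Nop16, a factor of 60S assembly, had values between 0.414 and 0.549 in knockdown and between 0.314 and 0.368 in control lysates (0.52 ± 0.15, adjusted p = 0.0560). Npm1 had 0.448, 0.401 and 0.376 with scramble, 0.403 and 0.615 with Gfp, 0.595, 0.828 and 0.717 with Denr shRNA1, and 0.622, 0.874 and 0.598 with Denr shRNA2 (0.66 ± 0.17, adjusted p = 0.0521), so that Gfp replicate 2 alone reached into the knockdown range.

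The other 7 that rose were Ltv1, an adaptor of 40S maturation, Gnl3 (nucleostemin), Bms1, the GTPase of the processome, Nop58, Lyar, Rrs1 and Pes1, with log2 changes from 0.47 (Pes1) to 0.86 (Ltv1). Ltv1 had between 0.333 and 0.485 in knockdown lysates and 0.179, 0.330 and 0.0885 (scramble), 0.199 and 0.368 (Gfp) in controls, from as few as 12 footprints in a library. Gnl3 ranged from 0.150 to 0.532 in controls (median 0.325) and from 0.366 to 0.636 in knockdown lysates (median 0.476). Bms1 ranged from 0.349 to 0.646 in controls (median 0.507) and from 0.570 to 1.01 in knockdown lysates (median 0.688). Nop58 ranged from 0.141 to 0.308 in controls (median 0.251) and from 0.285 to 0.441 in knockdown lysates (median 0.314). In these 3 the arms overlapped while the knockdown medians were higher. Lyar ranged from 0.0917 to 0.131 in controls (median 0.0960) and from 0.105 to 0.196 in knockdown lysates (median 0.156). Rrs1 ranged from 0.311 to 0.657 in controls (median 0.506) and from 0.569 to 0.775 in knockdown lysates (median 0.725). Pes1 ranged from 0.192 to 0.315 in controls (median 0.224) and from 0.276 to 0.395 in knockdown lysates (median 0.319). In all 6 the highest control lysate was Gfp replicate 2, and it lay within the range of the knockdown lysates. By role, 2 of 2 box C/D proteins tested rose, 3 of 4 chaperones and cofactors, 0 of 3 box H/ACA proteins, 1 of 5 processome proteins, 1 of 2 of PeBoW, 1 of 1 late 40S factor, 2 of 4 other 60S factors, and 0 of 1 polymerase subunit. The other members tested that did not pass were Nop10 (0.70), Ebna1bp2 (0.66), Ncl (0.54), Gar1 (0.42), Utp15 (0.37), Mrto4 (0.34), Heatr1 (0.30), Nop14 (0.28), Utp18 (0.24) and Nhp2 (0.14), beside Wdr12. In Heatr1 the ratio was above 1 in both arms, with means of 2.17 in controls and 2.64 in knockdown lysates. The one member below 0 was Polr1a (-0.17 ± 0.17, limma adjusted p = 0.451). Its ratio was also above 1, with 2.25 ± 0.222 in controls and 2.03 ± 0.441 in knockdown lysates. In RNA-seq, the control means of the 5′ UTR-to-CDS ratio were above 1 as well, at 1.74 for Polr1a and 1.47 for Heatr1.

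The count of 10 rested on few lysates. It was 0 without Denr shRNA2 replicate 2, 1 without Denr shRNA1 replicate 2 or without Gfp replicate 1, 2 without Denr shRNA1 replicate 3, 4 without scramble replicate 1 or scramble replicate 3, 6 without Denr shRNA1 replicate 1, and 15 without Gfp replicate 2, while the median over the members stayed between 0.44 and 0.61 in all of these. Against the single control shRNAs, 0 members passed in any of the 4 contrasts (limma). Of all genes tested, at most 0.406% passed in any of them, so that these counts of 0 do not set the members apart. Against scramble, 14 of 22 members were higher with Denr shRNA1 and 9 with Denr shRNA2 at an unadjusted p under 0.05 (63.6% and 40.9%, against 20.2% and 15.6% of all genes tested). Against Gfp these were 3 and 2 (13.6% and 9.09%, against 19.8% and 9.84%), and with 22 members these counts cannot be told apart from those shares. The median change of the members was 0.65 and 0.58 against scramble (0.34 and 0.27 over all genes tested) and 0.45 and 0.37 against Gfp (0.39 and 0.31), and between Gfp and scramble it was 0.18 (-0.05). These contrasts share their lysates, and the Gfp arm holds 2. In RNA-seq, the same ratio of 5′ UTR to CDS passed the test in 0 of 22 members (limma, 0 at an unadjusted p under 0.05) and in 0% of the 5175 genes, with a median change of 0.10 over the members.

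**Figure D5:**
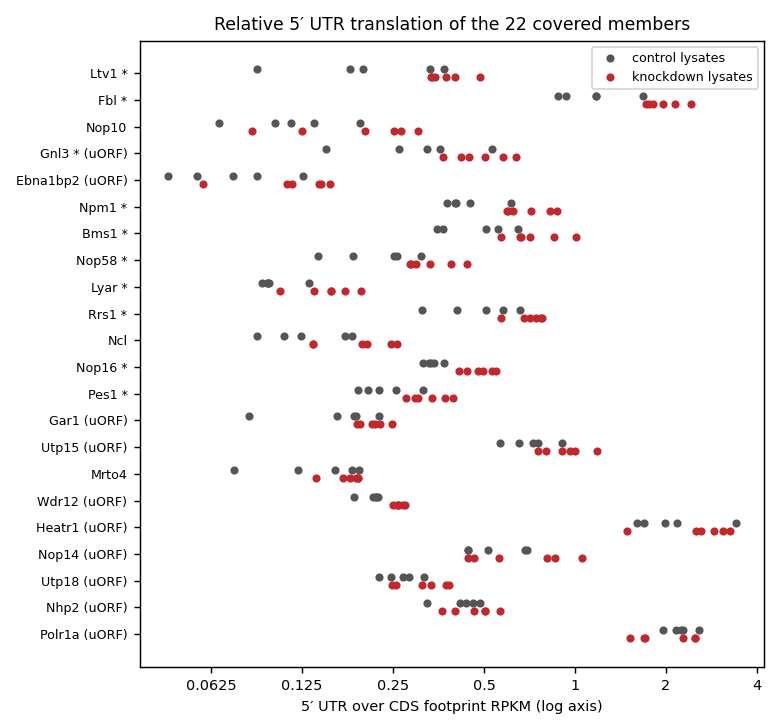
Relative 5′ UTR translation of the 22 members with enough 5′ UTR footprints, on a log axis, with 1 point per lysate (grey control, red knockdown) and members ordered by their change. Asterisks mark an FDR under 0.1 and "uORF" an annotated AUG uORF, and the arms separate completely for Fbl, Nop16 and Wdr12.

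On the transcript with the longest CDS, annotated AUG uORFs were not where relative 5′ UTR translation rose most. Of the 10 members that rose, 1 had an AUG uORF, Gnl3, and of the 12 that did not pass, 9 had one. The median change was 0.59 in the 12 members without and 0.30 in the 10 members with an AUG uORF. The same direction held over all genes tested, of which 27.5% of those without and 12.9% of those with an AUG uORF rose, with medians of 0.41 and 0.28. This split was not repeated with the transcript of the longest 5′ UTR, on which 51.1% of the 45 members had an AUG uORF in place of 33.3%. uORFs with other start codons were not analysed here. The uORF of Gnl3, shown because it was the one AUG uORF among the members that rose, starts within chr14:31019081-31019107 (minus strand, exon 1), is 114 nt long and ends 40 nt before the CDS.
Gnl3: gcgcgacagtgtATGtgtgtgcgcgcg

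Rrp9 had too few 5′ UTR footprints for this test, with 11, 16 and 17 reads with scramble, 9 and 8 with Gfp, 9, 41 and 31 with Denr shRNA1, and 28, 9 and 26 with Denr shRNA2. Its relative 5′ UTR translation was 0.141 to 0.333 in controls and 0.206 to 0.787 in knockdown lysates, with 4 of 6 above all controls. In the alternative test, which took genes with a 5′ UTR RPKM of at least 1, its change was 1.27 ± 0.37 (limma adjusted p = 0.105), which did not pass.

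The wider machinery was described with 99 other ribosome biogenesis genes. In CDS footprints, 11 of them fell and 0 rose (against 4.55% of all genes that fell), with a median of -0.12, and the largest decreases were those of Mdn1, the AAA ATPase of 60S assembly (-0.33 ± 0.10, limma adjusted p = 0.0851), and of the RNA helicase Ddx21 (-0.29 ± 0.09, adjusted p = 0.0726). In RNA abundance and TE, 0 of 99 passed (limma), against 3.55% and 0.475% of all genes in either direction. At an unadjusted p under 0.05, 14 were lower in RNA (14.1%, against 4.92% of all genes) and 1 was higher (1.01%, against 11.2%). In TE, 3 were lower (3.03%, against 5.18% of all genes) and 0 higher (against 1.47%). In relative 5′ UTR translation, 11 of 34 tested rose (against 18.1% of all genes tested), with Ddx18 (0.79 ± 0.29, adjusted p = 0.0947) and Wdr36 (0.78 ± 0.25, adjusted p = 0.0747) highest.

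Promoters were searched for the E-box CACGTG, which is its own reverse complement and is a sequence that Myc, among other factors, can bind. RefSeq promoter windows, of 250 bases before to 50 bases after a start site (GRCm38.p6), were found for 38 members. The motif was in the windows of 9 of the 38 (23.7%), against 12.2% of the genes with values and a window and 8.09% of all genes of the promoter table (10 of the 42 windows of members, or 23.8%, against 7.15% of all windows), and a match of letters is not a site. The 9 were Nop2, Utp4, Ltv1, Rpf2, Utp20, Pes1, Tsr1, Utp18 and Wdr43. Their CDS footprint changes had a median of -0.21 and those of the other 29 a median of -0.19. Of the 9, 2 fell in CDS footprints, Nop2 and Utp20, and for this reason their motifs are shown in capitals, at chr6:125131811-125131840 (plus strand, 60 bases before the start) and chr10:88826765-88826789 (minus strand, base 38 after the start).
Nop2: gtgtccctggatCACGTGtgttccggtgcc
Utp20: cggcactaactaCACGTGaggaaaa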

How the data were processed

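RPF-seq and RNA-seq were measured in 11 lysates (22 libraries). The authors trimmed reads with cutadapt, aligned them with Bowtie2 (2.2.1) and TopHat2 (2.0.11) to GRCm38.p2 (mm10), chose isoforms with Cufflinks (2.2.1), counted footprints at the A-site with the CDS preferred where a read was ambiguous, removed genes with few reads, and normalized each assay by the upper quartile with edgeR. The deposited values are RPKM per gene and library, for CDS and for 5′ UTR, without pooling of replicates. Values of 5′ UTRs were not finite in 116 genes. Read numbers were recovered from the steps between RPKM values, and gave the depth and the filter on 5′ UTR reads.

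Here, log2(RPKM + 0.1) was tested with limma 3.58.1 in R 4.3.3 (lmFit, eBayes with trend, two-sided), 6 knockdown against 5 control lysates, with Benjamini-Hochberg adjustment over all genes tested and an FDR of 0.1. A fold on this scale understates the change of low genes. The contrasts of single shRNAs came from 1 model with 4 group means. Replicates were separate dishes. In the comparison of knockdown with control lysates, the spread behind the p-values holds differences between dishes and between the shRNAs of an arm. Dishes of the same shRNA count as independent there, although each arm held only 2 shRNAs. Where the shRNAs of an arm differ, as Gfp and scramble did, these p-values can be too small. In the model with 4 group means, the spread holds differences between dishes of the same shRNA. The fits were tested on simulated data. uORFs (AUG, at least 9 nt, with a stop codon) were read from the longest-CDS transcript of GENCODE vM21, and promoters from RefSeq. Members past the FDR and those with the 3 largest rises and falls in a measure were named, with at most 2 other genes per direction. The members and lists were chosen with earlier results of these data known. Alternatives were other pseudocounts, a filter on low values, centred libraries, no trend, single shRNAs, a replicate block, leaving out each lysate and another filter on 5′ UTRs. Gfp against scramble and each Denr shRNA against each control were added after seeing the data. Whether the counting used strand is not given in the sources used here, so reads of overlapping antisense neighbours cannot be told apart.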

Additional observations from a re-analysis of the deposited data

Results flagged for a closer look

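In CDS footprints, 10 members differed between both Denr shRNAs in the direct contrast (limma, FDR 0.1), all lower with Denr shRNA2. The log2 differences were -0.55 for Fbl, -0.34 for Nop2, -0.33 for Lyar, -0.29 for Nop56, -0.29 for Rrs1, -0.29 for Nolc1, -0.27 for Dkc1, -0.27 for Tsr1, -0.27 for Rrp9 and -0.25 for Noc2l. Denr RNA itself was lower with Denr shRNA2 than with Denr shRNA1, and its part in these differences was not tested. Leaving out 1 knockdown lysate at a time gave between 3 and 6 such members.

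Single lysates stood apart from the rest of their arm in 2 of the 48 groups of values examined, by the gap to the nearest lysate as a share of the range. About 1 in 20 groups stands apart in this way by chance. In the relative 5′ UTR translation of Lyar, the control lysate Gfp replicate 2 had 0.131, where the other 4 controls had 0.0917 to 0.0972 (share 0.84). In the ratio of 5′ UTR to CDS in RNA-seq, the median of the members in scramble replicate 3 was -0.45 relative to the control mean, where the other 4 controls had 0.09 to 0.20 (share 0.841), and without this lysate the median knockdown change was -0.04 in place of 0.10.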

How the results depend on the processing

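Of 280 alternative values of counts, medians and shares, 201 stayed close to the value given and 79 moved, and of 391 alternative fits of members past the threshold, 221 kept the call, 170 lost it and 0 turned direction. For RNA abundance (1 member called, median -0.16), the count was 0 with centred libraries, 0 without trend, 0 with Denr shRNA1 alone, 5 with Denr shRNA2 alone and 8 with scramble alone as control, with medians of -0.083, -0.21 and -0.26 for the last 3. In the model of 4 groups it was 2 and 15 for Denr shRNA1 and Denr shRNA2 against scramble and 0 and 0 against Gfp. For CDS footprints (7 called, median -0.19), the count was 0 with Denr shRNA1 alone, 11 with Denr shRNA2 alone and 31 with scramble alone, with medians of -0.093, -0.25 and -0.29, and 24, 37, 0 and 2 in the 4 contrasts of single shRNAs. For TE (1 called) it was 0 with centred libraries, with either Denr shRNA alone (0 and 0) and with scramble alone (0). For relative 5′ UTR translation (10 called) it was 0 with Denr shRNA1 alone, 0 with Denr shRNA2 alone, 6 with scramble alone and 1 of 35 members with the filter on 5′ UTR RPKM. The share of members with an AUG uORF was 51.1% on the longest 5′ UTR. The cause of these moves was not tested. Leaving out 1 lysate at a time gave 0 to 4 members in RNA (medians -0.20 to -0.11), 1 to 24 in CDS footprints (medians -0.24 to -0.15), 0 to 1 in TE (medians -0.033 to -0.00070), 0 to 15 in relative 5′ UTR translation (medians 0.44 to 0.61), 3 to 6 between the Denr shRNAs and 4 to 18 between Gfp and scramble in CDS footprints. The median change of the RNA-seq ratio of 5′ UTR over CDS lay between -0.04 and 0.15. Deviations of same-numbered replicates from the mean of their shRNA correlated by mean r of 0.33 in RNA, 0.18 in CDS footprints and 0.23 in TE (10, 13 and 10 of 15 pairs over 0.1). For other numbers these were -0.16, -0.09 and -0.11 (5, 4 and 4 of 30 over 0.1). Deviations sum to 0 within an shRNA, so these negative means largely follow from the same-numbered ones and are not separate evidence. For the same reason, the Gfp lysates mirror each other. Of 11 lysates, 7, 9 and 9 correlated best with their own number. The same-numbered values are a hint of shared variation from the data, but pairing was required to hold in every pair and no source states it, so the fits without a block were kept. With a replicate block the counts were 4 in RNA, 18 in CDS footprints and 16 in relative 5′ UTR translation, and between the Denr shRNAs 10 in RNA and 23 in CDS footprints.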
